A study of Homo sapiens with 6 samples.

Results

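The canonical Polycomb repressive complex 1 (PRC1) was followed through 9 of its subunit genes in human embryonic stem cells in the primed and the naive state: PHC1, PHC2 and PHC3, RING1 and RNF2, and CBX2, CBX6, CBX7 and CBX8. These genes were found by name in the table of counts, and counts of gene identifiers that share a name were summed. All 9 were present among the 48183 names of the table and all 9 were among the 26497 genes with enough counts to be tested. RING1 was the sum of 6 identifiers, which lie on the reference and alternative copies of chromosome 6, and every other subunit had a single identifier.

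PRC1 is a ubiquitin ligase that adds ubiquitin to a lysine in the tail of histone H2A and keeps developmental genes silent. Its catalytic core pairs a RING protein, RING1 or RNF2 (also called RING1B), with a PCGF protein. The canonical form adds a chromobox (CBX) protein, which binds the histone H3 lysine 27 trimethylation laid down by PRC2, and a polyhomeotic (PHC) protein, whose SAM domain polymerizes and brings distant Polycomb sites together. Each position can be filled by 1 of several paralogs, so a complex of the same layout can be built from different genes.

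The bulk RNA-seq data came from 6 polyadenylated RNA libraries, 4 naive and 2 primed. The untreated primed libraries were the EOS line, which carries an EOS-GFP reporter of the naive state, and the CA-p38 EOS line, which in addition carries a doxycycline-inducible, constitutively active form of the kinase p38 (CA-p38); both were grown without feeder cells in StemFit AK02N on Matrigel. Of the naive libraries, 3 came from the EOS line, 1 induced with valproic acid (VPA, an inhibitor of histone deacetylases) and 2 with AICAR (an activator of the kinase AMPK), and 1 came from the CA-p38 EOS line induced with doxycycline. The naive cells were then passaged in PXGL medium and sorted for CD75 and SUSD2. The labels place them on inactivated mouse embryonic fibroblasts. The study also describes feeder-free culture of AICAR-induced and of CA-p38-induced naive cells without tying it to a bulk library. Medium, feeder, sorting and state cannot be told apart. The labels name the line as H1-EOS whereas the study's methods name it H9-EOS. The labels do not say whether libraries came from separate cultures, and the study describes the AICAR libraries as neighbouring passages, so p-values measure the spread between these libraries.

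Totals ranged from 46823699 to 54277064 counts per library. The labels were checked against marker genes. All 8 naive markers were higher in the naive libraries, with a summed level of 3063 to 3556 CPM (counts scaled to the same library total) against 8.98 to 11.4 CPM in the primed libraries, although SUSD2, 1 of the 8, was also used for sorting. All 6 primed markers were lower, at 39.9 to 50.6 CPM against 2728 to 3305 CPM. Of 8 fibroblast markers, 0 were higher and 4 were lower in the naive libraries, with a sum of 31.5 to 73.5 CPM against 649 to 682 CPM. THY1 stands in this list and in the primed list, and FAP was at or under 3 counts in every library. The feeders were mouse cells and reads were mapped to human sequences, so these values cannot tell how many feeder cells remained. Of 6 trophectoderm markers 4 were higher (17.0 to 18.0 against 4.04 to 5.38 CPM), of 5 hypoblast and endoderm markers 1 was higher and 3 were lower, and of 3 neural markers 1 was lower. Of the shared pluripotency genes POU5F1, NANOG and SOX2, 1 was higher and 1 lower. The part of these cell types in the results was not tested.

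Of the 9 subunit genes, 8 differed between the states. The threshold was an adjusted p of 0.05 in edgeR's quasi-likelihood test, adjusted by Benjamini-Hochberg over all tested genes. PHC3, RING1 and CBX8 were higher in the naive state, and PHC1, PHC2, CBX2, CBX6 and RNF2 were lower. CBX7 did not pass the test. Over all tested genes, 53.1% passed in either direction, 26% higher and 27% lower in the naive libraries. The naive and primed libraries did not overlap for 7 of the 9 subunits, against 64.9% of all tested genes, and the change was at least 2-fold for 5 of 9, against 35.3%. So a change as such was common in these libraries, and the values below concern which paralog changed in which direction. In bulk samples, a difference in the RNA per cell and a difference in the number of cells carrying it cannot be told apart.

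**Figure D1:**
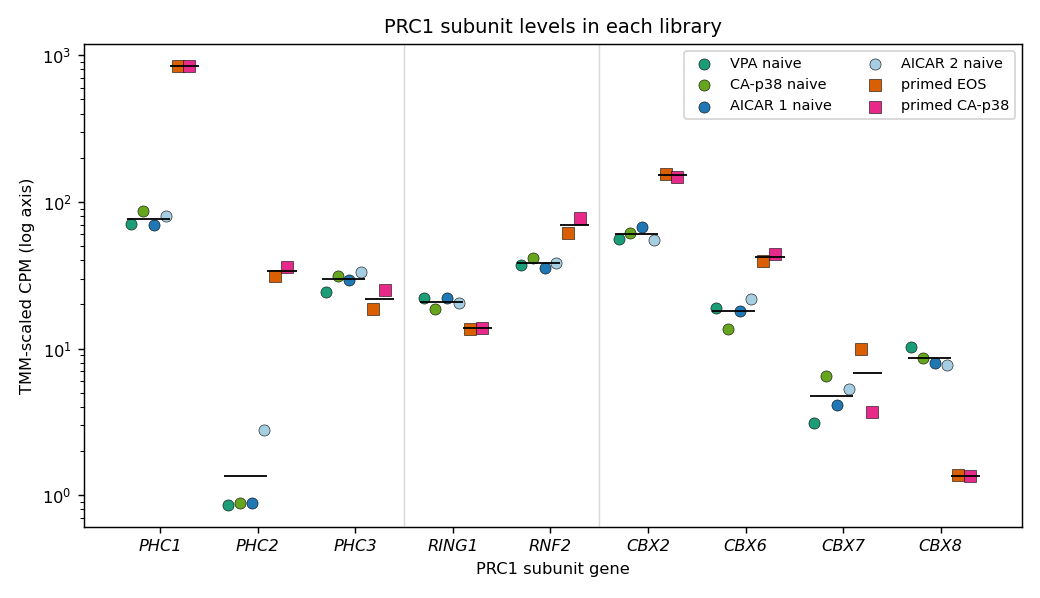
Level of each of the 9 PRC1 subunit genes in each library, in CPM scaled by trimmed mean of M-values (TMM), on a log axis. Circles are naive libraries, squares are primed libraries, and short lines are group means (n = 4 and n = 2). PHC1 and PHC2 lie far lower and CBX8 higher in every naive library, whereas the groups overlap for PHC3 and CBX7.

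The polyhomeotic genes showed the largest falls among the subunits. PHC1, the PHC paralog known for its high level in embryonic stem cells, was at 70.5 CPM in VPA naive, 86.3 CPM in CA-p38 naive, 70.1 CPM in AICAR 1 and 80.6 CPM in AICAR 2 cells. In the primed EOS and primed CA-p38 libraries it was at 845 and 843 CPM. All naive libraries thus lay far below both primed libraries, which nearly coincided. Means were 76.9 ± 7.93 CPM (SD, n = 4) against 844 ± 1.93 CPM (SD, n = 2), and the log2 fold change (naive minus primed) was -3.46 (SE 0.10), an 11.0-fold lower level (adjusted p = 5.97e-11, edgeR's quasi-likelihood test).

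PHC2, a paralog expressed in many differentiated tissues, fell further. Its level was 0.860 CPM in VPA naive, 0.891 CPM in CA-p38 naive, 0.883 CPM in AICAR 1 and 2.78 CPM in AICAR 2 cells, against 31.0 CPM in the primed EOS and 36.0 CPM in the primed CA-p38 library. The first 3 values rest on 45, 45 and 48 counts. AICAR 2 stood apart from the other naive libraries but still lay far below both primed libraries. The log2 fold change was -4.64 (SE 0.38, adjusted p = 3.91e-07, edgeR's quasi-likelihood test), or 24.9-fold lower, and it was -5.25 when AICAR 2 was left out, a fold 1.53 times as large. Set against the primed mean, PHC2 was at 8.29% in AICAR 2 and at 2.56% to 2.66% in the other naive libraries. The summed primed markers were also highest in AICAR 2, at 1.68% of their primed mean against 1.32% to 1.44%, and their part in the PHC2 value was not tested.

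PHC3, the third paralog, did not fall. It was at 24.1, 31.2, 29.6 and 33.4 CPM in VPA, CA-p38, AICAR 1 and AICAR 2 naive cells and at 18.5 and 25.1 CPM in primed EOS and primed CA-p38 cells. The groups overlapped, since VPA naive lay below primed CA-p38. The log2 fold change of 0.44 (SE 0.17) passed edgeR's quasi-likelihood test narrowly (adjusted p = 0.0461) but lost the call in 8 of 15 alternative analyses, with adjusted p between 0.0183 and 0.409. Without primed EOS the difference was 0.22.

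The balance within the family therefore shifted within each library. On the log2 scale of counts, the PHC1/PHC3 ratio was 1.25 to 1.55 in the naive libraries and 5.07 and 5.51 in the primed ones, a difference of -3.91. The PHC2/PHC3 ratio turned sign, from 0.75 and 0.52 in primed cells to between -5.12 and -3.58 in naive cells, a difference of -5.27. The PHC1/PHC2 ratio was higher in naive cells by 1.36, and AICAR 2 naive (4.85) lay just above primed EOS (4.77). Neither group overlapped the other in any of these ratios. An exact two-sided permutation test gave p = 0.0667 for each, the smallest p that 4 against 2 libraries allow. After Benjamini-Hochberg adjustment over 25 paralog pairs it was 0.0794. With the AICAR libraries summed, the same test gave 0.2 for PHC1/PHC2 but 0.1 for PHC1/PHC3 and PHC2/PHC3. The same values were found when VPA, CA-p38 or AICAR 1 naive was left out.

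Counts per kilobase of merged exons (CPM per kb) allow the paralogs to be set beside each other. The summed PHC level fell from 145 ± 0.603 to 14.5 ± 1.54 CPM per kb, 9.98-fold. PHC1 kept the largest share in both states, 94.9% ± 0.613 (SD, n = 2) of the primed and 86.3% ± 1.75 (SD, n = 4) of the naive family level. PHC3 rose from 0.889% to 12.0% of the family and PHC2 dropped from 4.17% to 1.65%. PHC3 thus took the second place from PHC2 in all 4 naive libraries without a large change of its own level, which was 1.29 CPM per kb in primed and 1.75 CPM per kb in naive cells.

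The promoters of the PHC genes are printed here because the paralogs changed so differently. The table of promoters used here, taken from RefSeq (GRCh38.p14), gives 300-base windows, 250 bases before to 50 after a start, for 7 of the 9 subunit genes at 9 starts. CBX2 and CBX8 are not in that table. PHC1 has a pair of starts 666 bases apart and PHC2 a pair 81196 bases apart, and the counts per gene do not say which start was used. Capitals mark CG dinucleotides, the sites of DNA methylation.
PHC1 first start, chr12:8913593-8913892, plus strand: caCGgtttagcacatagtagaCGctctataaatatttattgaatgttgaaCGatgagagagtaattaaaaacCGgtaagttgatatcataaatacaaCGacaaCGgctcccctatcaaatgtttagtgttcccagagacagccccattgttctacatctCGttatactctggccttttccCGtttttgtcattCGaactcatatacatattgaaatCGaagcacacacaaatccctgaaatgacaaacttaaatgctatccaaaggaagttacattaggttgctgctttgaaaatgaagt
PHC1 second start, chr12:8914259-8914558, plus strand: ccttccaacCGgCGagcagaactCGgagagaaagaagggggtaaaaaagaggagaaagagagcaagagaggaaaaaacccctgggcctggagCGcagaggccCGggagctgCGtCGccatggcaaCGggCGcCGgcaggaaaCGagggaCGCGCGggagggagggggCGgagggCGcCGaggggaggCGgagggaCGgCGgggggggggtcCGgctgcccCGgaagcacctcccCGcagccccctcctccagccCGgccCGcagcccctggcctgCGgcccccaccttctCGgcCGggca
PHC2 distal start, chr1:33431046-33431345, minus strand: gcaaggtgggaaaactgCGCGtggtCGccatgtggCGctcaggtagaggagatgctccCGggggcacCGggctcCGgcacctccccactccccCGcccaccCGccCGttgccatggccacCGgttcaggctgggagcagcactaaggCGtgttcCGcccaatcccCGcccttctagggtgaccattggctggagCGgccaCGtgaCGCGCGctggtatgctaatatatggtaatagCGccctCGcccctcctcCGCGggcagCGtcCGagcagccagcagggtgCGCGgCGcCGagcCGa
PHC2 proximal start, chr1:33349850-33350149, minus strand: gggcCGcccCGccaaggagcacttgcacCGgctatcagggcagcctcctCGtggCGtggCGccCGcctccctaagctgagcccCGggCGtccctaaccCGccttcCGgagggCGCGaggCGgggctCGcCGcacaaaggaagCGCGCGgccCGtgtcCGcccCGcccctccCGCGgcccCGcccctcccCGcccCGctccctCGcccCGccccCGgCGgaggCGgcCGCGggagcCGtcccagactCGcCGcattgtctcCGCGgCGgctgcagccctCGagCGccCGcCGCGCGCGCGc
PHC3, chr3:170181684-170181983, minus strand: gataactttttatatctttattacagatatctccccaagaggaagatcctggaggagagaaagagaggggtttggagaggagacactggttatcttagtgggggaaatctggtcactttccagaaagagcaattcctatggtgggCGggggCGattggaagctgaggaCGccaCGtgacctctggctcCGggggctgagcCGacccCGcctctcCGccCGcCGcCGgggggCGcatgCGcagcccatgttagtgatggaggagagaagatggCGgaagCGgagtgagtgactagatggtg

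The windows differed in CG content. The first PHC1 start held 10 CG dinucleotides and 37.0% G+C, and the second 28 CG and 72.3% G+C. The PHC2 starts held 30 and 48 CG, and PHC3 held 15. The median over 35116 promoter windows was 14 CG, and 1.98% of windows held at least as many as the proximal PHC2 start. The other subunits with an entry had 41 (RING1 and RNF2), 47 (CBX6) and 50 (CBX7) CG. On either strand, the GC box GGGCGG was present in 8 of the 9 subunit windows and in 45.0% of all windows, the E-box CACGTG in 3 and in 7.26%, and TATAAA in 2 and in 11.5%. The octamer ATTTGCAT was in 0 of the 9 and in 1.77% of all windows. These are matches of letters and not sites of binding, and methylation of these windows was not measured here.

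Some counts of the PHC1 locus need care. PHC1P1, a pseudogene of PHC1, was at 5.04 to 7.27 CPM in naive and at 95.7 and 91.4 CPM in primed cells, a log2 fold change of -3.96 (SE 0.14). Reads of the pseudogene and of PHC1 may have been shared by the mapping. PHC1 (chr12:8913896-8941467) is overlapped by M6PR on the opposite strand and PHC2 (chr1:33323623-33431095) by the antisense gene PHC2-AS1, which had 0 to 6 counts per library. Whether counting used the strand is not given in the sources used here.

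The RING genes changed in opposite directions, each by less than 2-fold. RNF2, the main ligase of PRC1 in mouse embryonic stem cells, was at 37.2, 41.7, 35.5 and 38.3 CPM in VPA, CA-p38, AICAR 1 and AICAR 2 naive cells and at 61.3 and 78.1 CPM in primed EOS and primed CA-p38 cells. Every naive library lay below both primed ones, with a log2 fold change of -0.87 (SE 0.13, adjusted p = 7.58e-05, edgeR's quasi-likelihood test). RING1, its paralog with the same enzymatic role, was at 22.1, 18.5, 22.0 and 20.5 CPM in naive and 13.6 and 13.9 CPM in primed cells. Every naive library lay above both primed ones, with a log2 fold change of 0.59 (SE 0.15, adjusted p = 0.00491).

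The log2 RING1/RNF2 count ratio was -1.17 to -0.69 in naive cells and -2.17 and -2.49 in primed cells, a difference of 1.45 with no overlap (exact permutation p = 0.0667). Per kb of merged exons, RING1 made up 30.0% ± 3.32 (SD, n = 2) of the RING level in primed cells and 53.9% ± 3.69 (SD, n = 4) in naive cells. The share was 56.1%, 57.1% and 53.6% in VPA, AICAR 1 and AICAR 2 cells but 48.9% in CA-p38 naive cells, where RNF2 remained slightly ahead. The summed RING level was 21.2 ± 0.340 CPM per kb in naive and 25.4 ± 3.15 CPM per kb in primed cells. The RING1 share rests on adding its 6 identifiers, each with 93 to 222 counts per library. With only the identifier with the most counts, RING1 was at 17.2% of naive and 6.54% of primed RING level, so the direction of the shift did not depend on the sum but the size of the share did. RNF2P1, a pseudogene of RNF2, was low in all libraries, at 1.18 to 1.91 CPM in naive and at 0.323 and 0.307 CPM in primed cells, opposite to RNF2.

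The chromobox genes moved apart. CBX2, a CBX protein that compacts chromatin, was at 55.8, 61.5, 67.5 and 55.2 CPM in VPA, CA-p38, AICAR 1 and AICAR 2 naive cells and at 155 and 147 CPM in primed EOS and primed CA-p38 cells. All naive libraries lay below both primed ones, with a log2 fold change of -1.33 (SE 0.11), 2.52-fold lower (adjusted p = 4.08e-07, edgeR's quasi-likelihood test). CBX6 was at 18.9, 13.7, 18.2 and 21.7 CPM in naive and 39.6 and 44.2 CPM in primed cells. It was lower in all naive libraries, by -1.21 (SE 0.17) on the log2 scale (adjusted p = 4.55e-05).

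CBX8 moved the other way. It was at 10.2, 8.69, 8.02 and 7.71 CPM in VPA, CA-p38, AICAR 1 and AICAR 2 naive cells and at 1.37 and 1.35 CPM in primed EOS and primed CA-p38 cells, which held 68 and 66 counts. Every naive library was several fold above both primed ones, with a log2 fold change of 2.67 (SE 0.25), 6.34-fold higher (adjusted p = 1.64e-06, edgeR's quasi-likelihood test). It was the only subunit of the 9 with a rise of at least 2-fold.

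CBX7, described as the main CBX protein of PRC1 in mouse embryonic stem cells, gave no difference that passed the test. It was at 3.11, 6.47, 4.12 and 5.34 CPM in VPA, CA-p38, AICAR 1 and AICAR 2 naive cells, against 9.86 CPM in the primed EOS and 3.72 CPM in the primed CA-p38 library. The primed libraries differed by 2.65-fold from each other and enclosed most of the naive values. The log2 fold change was -0.51 (SE 0.37, adjusted p = 0.259 in edgeR's quasi-likelihood test). A primed library decided it. It was 0.34 without primed EOS (adjusted p = 0.534) and -1.04 without primed CA-p38 (adjusted p = 0.0327).

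Per kb of merged exons, CBX2 held 80.6% and 80.3% of the summed level of these 4 CBX genes in the primed EOS and primed CA-p38 libraries and 64.7% to 71.4% in the naive libraries, so it led in both states. CBX8 rose from 0.996% ± 0.0228 (SD, n = 2) to 13.5% ± 2.05 (SD, n = 4) of the sum, with no overlap. It was the lowest of the 4 in both primed libraries, close in share to CBX6 in the naive libraries and above CBX6 in VPA and CA-p38 naive cells. CBX6 held 15.8% ± 1.80 of the primed and 14.6% ± 3.0 of the naive sum and CBX7 2.71% ± 1.66 and 4.10% ± 1.29, and both overlapped between the groups. Of the 9 subunits, 7 had family shares that did not overlap between naive and primed libraries, CBX6 and CBX7 being the exceptions. This count is descriptive, since shares within a family depend on each other. The RING1 and RNF2 shares differed by 23.9 and -23.9 points (naive minus primed), so the same shift was counted for both genes. By level, 64.9% of all tested genes did not overlap between the groups, and no count of shares is given here for other gene families. The summed level of the 4 CBX genes was 15.6 ± 0.756 CPM per kb in naive and 33.2 ± 1.18 CPM per kb in primed cells, 2.13-fold lower.

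**Figure D2:**
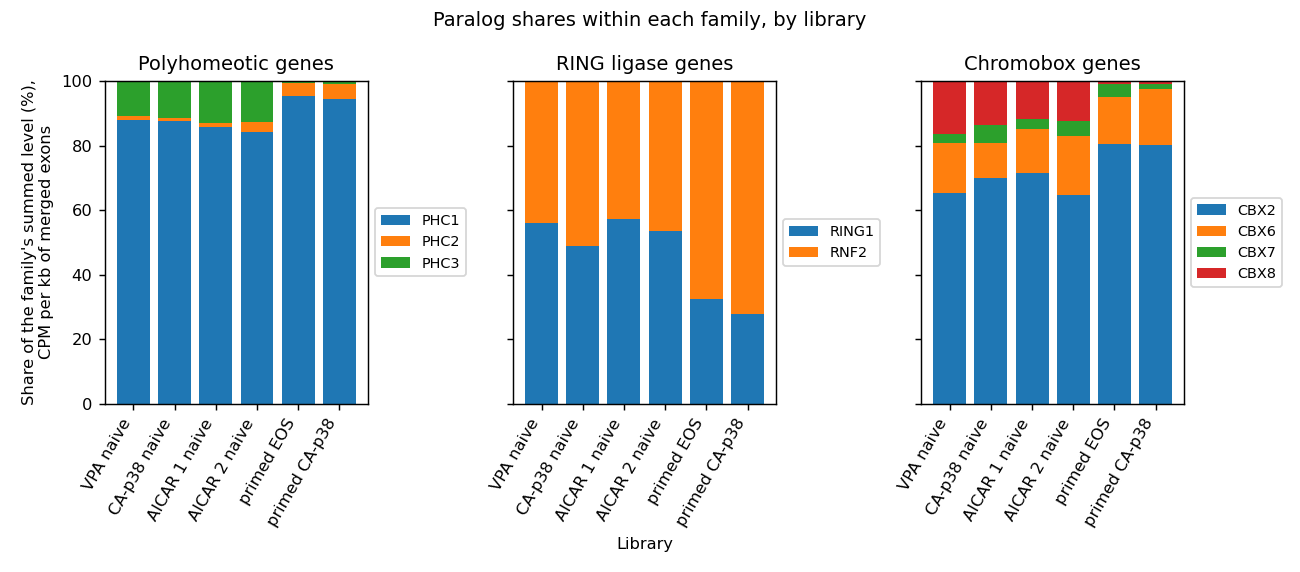
Share (%) of each paralog in the summed per-length level (CPM per kb of merged exons) of the PHC, RING and CBX subunit genes, as stacked bars with 1 bar per library. In the 4 naive libraries CBX8 gains a visible share beside CBX2, RING1 gains on RNF2, and PHC3 gains a visible share beside PHC1, compared with the 2 primed libraries.

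The CBX ratios within libraries fell into 2 kinds. CBX7/CBX8 turned sign on the log2 scale, from 2.83 and 1.46 in primed cells to between -1.71 and -0.42 in naive cells, a difference of -3.05. CBX2/CBX8 and CBX6/CBX8 kept their sign and differed by -3.99 and -3.88. These signs are those of count ratios, which depend on gene length. Per kb of merged exons, CBX8 lay above CBX6 in VPA and CA-p38 naive cells. All 3 pairs with CBX8 had no overlap between the groups and the smallest exact permutation p the design allows, 0.0667.

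The pairs without CBX8 overlapped. The log2 CBX2/CBX6 ratio was 1.35 to 2.17 in naive and 1.74 and 1.97 in primed cells, a difference of -0.11 (exact permutation p = 0.733). CBX2/CBX7 and CBX6/CBX7 also overlapped, with differences of -0.94 (p = 0.267) and -0.83 (p = 0.467, both exact permutation tests). In total, 7 of the 10 pairs within the PHC, RING and CBX subunits did not overlap between naive and primed libraries. The count is a description, since pairs share genes, 64.9% of all single genes did not overlap either, and no share over other gene pairs was computed. Of the 25 pairs compared, the other 15 were PCGF pairs.

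**Figure D3:**
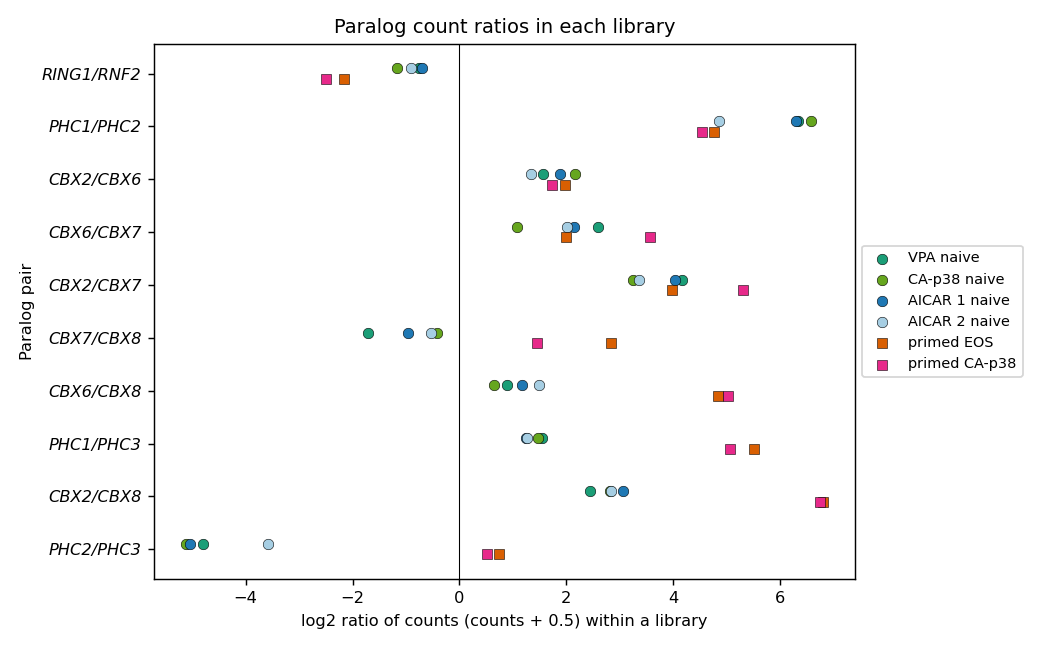
The log2 ratio of counts (0.5 added to each count) of 10 paralog pairs within each library. Circles are the 4 naive and squares the 2 primed libraries. The groups are apart for 7 pairs, by -5.27 for PHC2/PHC3 and by 1.45 for RING1/RNF2, and overlap for CBX2/CBX6, CBX2/CBX7 and CBX6/CBX7.

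CBX2 and CBX8 are neighbours on the genome (GRCh38, GENCODE 44), within 23.5 kb of chromosome 17 (chr17:79778148-79801683). CBX2 lies on the plus strand and CBX8 on the minus strand, with 4148 bases between them, so a gene that fell and a gene that rose lie side by side. The opposite strand of CBX8 holds an unnamed gene (ENSG00000262768), and reads of overlapping genes cannot be told apart where strand was not used.

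Across subunits, the per-length order of levels changed between states. In primed cells PHC1 led with 138 CPM per kb, followed by CBX2 (26.7), RNF2 (17.8), RING1 (7.59), PHC2 (6.04), CBX6 (5.25), PHC3 (1.29), CBX7 (0.910) and CBX8 (0.330 CPM per kb). PHC3 and CBX7 changed places between the primed libraries, at 1.09 and 1.32 CPM per kb in primed EOS but 1.49 and 0.498 CPM per kb in primed CA-p38, so their order is not settled. In naive cells PHC1 (12.5), RING1 (11.4), CBX2 (10.6) and RNF2 (9.77 CPM per kb) lay close together. Their ranges over the 4 naive libraries, 11.4 to 14.1, 10.2 to 12.2, 9.74 to 11.9 and 9.08 to 10.7 CPM per kb, overlapped from each to the next. CBX6 (2.27), CBX8 (2.10) and PHC3 (1.75 CPM per kb) formed a lower tier, whose ranges also overlapped, above CBX7 (0.638) and PHC2 (0.244 CPM per kb).

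Each naive library was next compared with its own parental line. For 8 of the 9 subunits, all 4 naive libraries moved in the same direction from their parent. This count is descriptive, since 3 of the naive libraries share primed EOS as their parent. The same also holds for every tested gene without overlap between the groups, 64.9% of all tested genes. The full share over all genes was not computed. PHC1 was 9.77-fold lower in CA-p38 naive and 10.5-fold to 12.1-fold lower in the EOS-derived cells, and CBX8 was 5.61-fold to 7.41-fold higher. PHC2 was 35.1-fold to 40.5-fold lower in VPA, CA-p38 and AICAR 1 cells but 11.2-fold lower in AICAR 2 cells. The rise of PHC3 was smallest in CA-p38 naive cells, at 1.24-fold (95% exact Clopper-Pearson limits 0.20 to 0.42 on the log2 scale), and largest in AICAR 2 cells, at 1.81-fold (0.74 to 0.97). These limits cover counting error only, and each line has 1 primed library.

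CBX7 was the exception. Its log2 fold over the parent was -1.66 in VPA, -1.26 in AICAR 1 and -0.89 in AICAR 2 naive cells, all against primed EOS, but 0.80 in CA-p38 naive cells against primed CA-p38. A model with a line-by-state term, added after the values were seen, gave a difference between lines of 2.03 (SE 0.59) for CBX7. Its p was 0.00658 before and 0.9999 after adjustment over all genes in edgeR's quasi-likelihood test. Of the 9 subunits 1 was under an unadjusted p of 0.05 in this model, as were 853 of all 26497 genes, and 1 gene, or 0.00377%, passed after adjustment. That gene was H19, named here after its value was seen. Without adjustment the next smallest p among the subunits was 0.0540, for CBX6.

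Other canonical PRC1 genes changed in both directions as well. All 6 of the list described here passed the test, 3 higher and 3 lower in the naive state. Of all tested genes 53.1% passed, 26% higher and 27% lower. BMI1, the PCGF protein of canonical PRC1 also called PCGF4, was at 30.7 to 33.8 CPM in naive and 3.80 and 4.62 CPM in primed cells, a log2 fold change of 2.95 (SE 0.17). Its paralog PCGF2 differed by -0.31 (adjusted p = 0.0411 in edgeR's quasi-likelihood test). The log2 BMI1/PCGF2 count ratio rose from -4.12 and -4.0 to between -0.92 and -0.62. The gene COMMD3-BMI1 overlaps BMI1 on the same strand, and reads common to both may have been lost or shared by the mapping. The SCM proteins, relatives of the fly Polycomb protein Sex comb on midleg, split. SCMH1 fell (-2.60, SE 0.21) and SCML2 fell (-1.14, SE 0.16), whereas SCML1 rose (1.17, SE 0.23) and SCML4 rose from a low level (1.14, SE 0.44). The calls of PCGF2 and SCML4 were lost in some alternatives, with adjusted p (edgeR, DESeq2 or limma-voom) of up to 0.272 and 0.234.

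Variant PRC1 complexes contain RYBP or YAF2 in place of CBX and PHC proteins. Of 27 genes of this list 18 passed the test, 7 higher and 11 lower, with a median log2 fold change of -0.20 against 0.11 over all tested genes. That was 66.7% of the list against 53.1% of all tested genes, of which 26% were higher and 27% lower. Without primed CA-p38 only 5 were called lower. Most changes were below 2-fold, and the core genes RYBP and YAF2 did not pass. The rises of at least 2-fold were FBRS (2.42), PCGF6 (1.36), PCGF1 (1.04) and WDR5 (1.03), and the fall was AUTS2 (-2.81). FBRS and AUTS2 belong to the same family and can each join PCGF3 or PCGF5 complexes. FBRS was at 79.9 to 105 CPM in naive and 16.6 and 17.1 CPM in primed cells. AUTS2, in contrast, was at 17.4 to 25.6 CPM in naive and 150 and 155 CPM in primed cells.

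**Figure D4:**
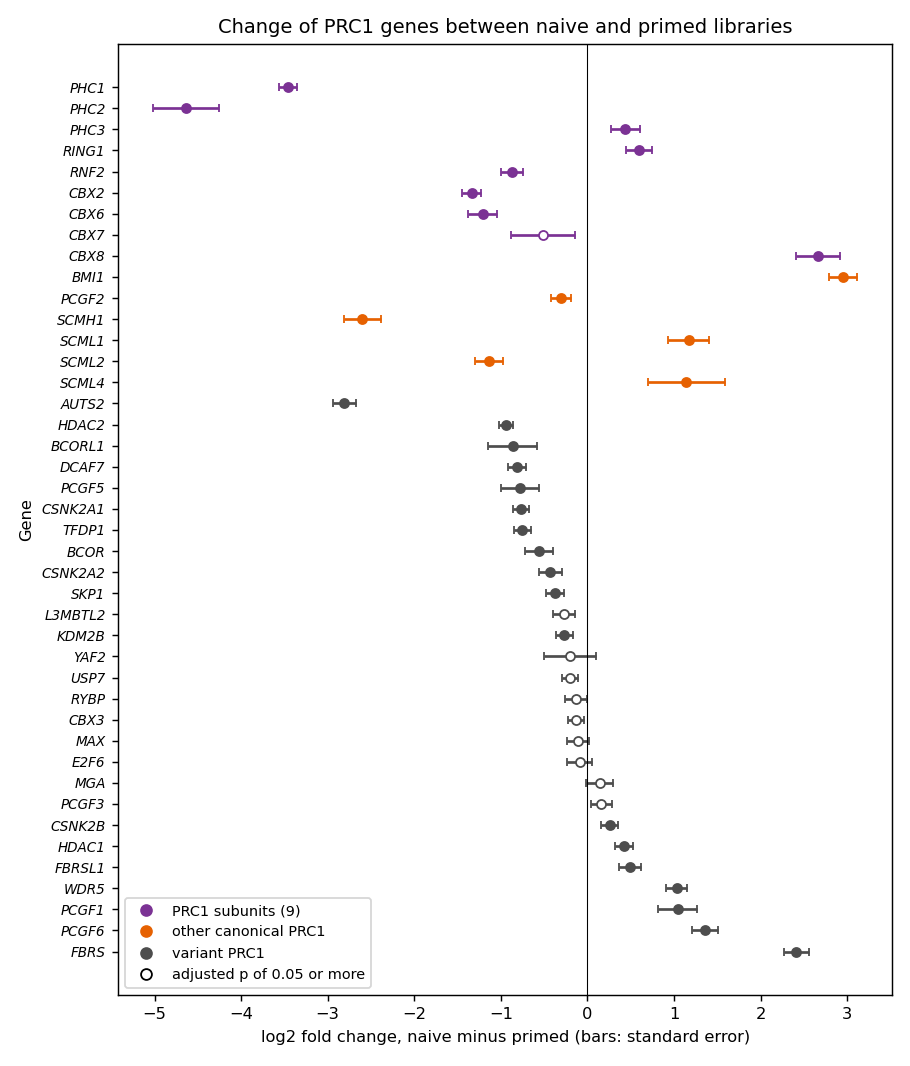
The log2 fold change (naive minus primed) with its standard error for the 9 subunits, 6 other canonical PRC1 genes and 27 variant PRC1 genes, from edgeR's quasi-likelihood fit over all 6 libraries. Filled points have an adjusted p under 0.05. BMI1 (2.95) and PHC2 (-4.64) mark the ends, and most variant PRC1 genes lie within 1 log2 unit of 0.

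Enzymes that remove the PRC1 mark, and PRC2, were set beside the subunits. Of 6 genes of histone H2A deubiquitination, 1 was higher and 2 were lower, among them ASXL1, a cofactor of the deubiquitinase BAP1 (-1.51, SE 0.15). This share of 50% lay near the 53.1% of all tested genes. Without primed CA-p38 1 was lower. Of 14 PRC2 genes 13 were tested, and 3 were higher and 7 lower, 76.9% against the same 53.1%. The falls of at least 2-fold were PHF19 (-1.99), JARID2 (-1.79) and RBBP7 (-1.78), and the rises EPOP (1.75) and AEBP2 (1.07). AEBP2 and JARID2 are accessory subunits of the same form of PRC2, and PHF19 and EPOP belong to the other form.

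Of 18 developmental genes known as Polycomb targets, 14 were tested, with 9 higher and 2 lower in naive cells, against 26% higher and 27% lower of all tested genes. Their median log2 fold change was 3.08, or 2.47 with the 3 genes at or under 3 counts in both primed libraries set to their fold over 3 counts per library. The filter on low counts could admit a gene through its naive libraries alone, as for NEUROG1 with 10 to 20 naive and 0 primed counts. A gene high only in primed cells needed enough counts in both primed libraries. The split of 9 to 2 and the median therefore lean toward genes higher in naive cells. Without this filter 10 were higher and 4 lower. The levels were low, with a median of 0.779 CPM. The cell cycle inhibitor gene CDKN2A was at 2.12 to 3.75 CPM in naive cells and had 3 and 2 counts in the primed libraries. The highest naive level among these genes was that of the transcription factor GATA4, at 7.53 to 13.5 CPM against 0 and 0.941 CPM. FOXA2 and TBX5 fell, and their primed libraries differed widely, with FOXA2 at 5.36 CPM in the primed EOS and 21.4 CPM in the primed CA-p38 library. Asking for at least 10 counts in every library left 1 higher and 1 lower. Of the 6 trophectoderm markers 4 were higher in the same naive libraries, and their part in the levels of these lineage genes was not tested. HAND1 stands both among these markers and among the Polycomb targets. GATA4 and FOXA2 also stand among the hypoblast and endoderm markers.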

How the data were processed

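Polyadenylated RNA of 4 naive and 2 primed libraries was sequenced. The authors trimmed adapters with cutadapt 1.15 in Trim Galore 0.4.4, mapped reads to Ensembl release 100 (GRCh38) cDNA and ncRNA sequences with Bowtie2 2.2.5 and deposited raw counts per gene identifier for alignments whose mapping quality was 1 or more. Reads shared by identical copies, such as those of RING1, can be lost or split by such a filter. Not used here were 23 columns that hold libraries of other studies. There were 26 spike-in rows (at most 1 count per library), and these were left out. Counts of 61196 identifiers were summed by name to 48183, of which 26497 passed edgeR's filterByExpr.

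Naive against primed was tested by the quasi-likelihood method of edgeR 4.0.16 (R 4.3.3) with TMM scaling and Benjamini-Hochberg adjustment with a threshold of 0.05. Standard errors are the log2 fold change divided by the square root of F. The median log2 fold change of all tested genes was 0.11, and 0.20 with library totals. Paralog ratios were tested with exact two-sided permutation tests over the 6 libraries, after adding 0.5 to each count. Levels per kb used merged exons of GENCODE 44, and folds over the parental line have 95% Clopper-Pearson limits. Alternatives were DESeq2 1.42.0, limma-voom 3.58.1, other scalings and filters, a term for the parental line, summed AICAR libraries, separate identifiers and leaving out each library. Between AICAR 1 and AICAR 2 counts varied beyond counting error (chi-square per gene 21.1, against 19.8 to 35.9 for the other naive pairs), so they were not treated as duplicates of 1 library. This does not show that they are independent cultures. They were counted as 2 samples as labelled, and summed in an alternative.

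The subunits, gene lists and markers were chosen with earlier results of these data known. All 9 subunits are named, other listed genes if they passed the test with a change of at least 2-fold, pseudogenes and antisense genes by symbol, and for the subunits with the highest and lowest log2 fold change the 3 genes of the most similar profile. PCGF2, RYBP, YAF2 and BAP1 were named outside this rule. Genes withheld from this account are not reported here, and the family sums and gene lists were taken without them.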

Additional observations from a re-analysis of the deposited data

Results flagged for a closer look

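PHC2 in AICAR 2 naive cells (2.78 CPM) stood apart from the other 3 naive libraries, which lay between 0.860 and 0.891 CPM. Its gap to the nearest of them was 0.984 of the whole range of the group, above Dixon's critical value for 4 samples. Chance places about 1 in 20 groups above it. This ratio was taken for each of the 9 subunits and for BMI1, and PHC2 had the largest. The rate of 1 in 20 holds for a single group and not for the largest of several. The 138 counts behind the value compare with 45 to 48 counts in the other naive libraries. PHC1 did not stand apart in this library, at 9.54% of its primed mean against 8.30% to 10.2% in the others.

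CBX7 moved in opposite directions from the parental line. It was higher in CA-p38 naive cells than in primed CA-p38 cells, by 0.80 on the log2 scale, and lower in each of the 3 EOS-derived naive libraries than in primed EOS cells. The difference between lines (2.03, SE 0.59) did not pass edgeR's quasi-likelihood test after adjustment over all genes. The CA-p38 EOS line has 1 naive and 1 primed library, so line, induction and library cannot be told apart.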

How the results depend on the processing

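Over 15 alternatives of the fit, 7 of the 9 subunits kept their direction and their call, the exceptions being PHC3, which lost its call in 8, and CBX7. The subunits called higher numbered 2 to 3 and those called lower 5 to 6. CBX7 ranged from -1.04 (without primed CA-p38) to 0.34 (without primed EOS), where it turned. The small CBX2/CBX6 difference ranged from -0.25 to 0.021 when single libraries were left out and turned to 0.021 without AICAR 2 and to 0.0066 without primed EOS, and 7 to 9 of the 10 pairs had no overlap. The CBX7 fold in CA-p38 naive cells turned to -0.069 when both primed libraries were averaged as its reference. Of the folds over the parental line recomputed under other scalings or references, 23 left their counting limits without turning, 1 turned and 84 did neither. With the length or identifier used, 11 mean family shares moved, while 13 naive and 12 primed means did not. The shares of 7 of 9 subunits stayed apart. Leaving out each library in turn gave 5 to 11 variant PRC1 genes lower, 1 to 3 deubiquitination genes lower and 2 to 4 Polycomb targets lower. Library totals gave 2 deubiquitination genes higher. Without a filter on low counts 4 Polycomb targets were lower, and with at least 10 counts in every library 1 was higher and 1 was lower, since fewer genes were tested. The causes of the other changes were not tested. With 2 primed libraries no paralog ratio can reach an exact p under 0.05, and at 45 to 48 counts the naive PHC2 levels are imprecise. With the parental line as a term 13420 genes were called, and all 9 subunits kept their direction and their side of the threshold.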

Other observations

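Genes whose profile over the 6 libraries was most like that of CBX8, the subunit with the largest rise, were PDLIM1, OVOL2 and AARS2, at Euclidean distances of 0.175, 0.204 and 0.229 on the mean-centred log2 CPM scale among 12603 genes (mean level of 5 CPM or more). PDLIM1, a cytoskeletal PDZ and LIM domain protein, was at 234 to 271 CPM in naive and 41.5 and 41.1 CPM in primed cells. OVOL2, a zinc finger transcription factor, was at 15.7 to 19.2 CPM against 2.73 and 2.82 CPM.

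Genes most like PHC2, the subunit with the largest fall, were UBE2L6, TCEAL3 and RHOBTB1, at distances of 0.600, 0.790 and 0.820. UBE2L6, a conjugating enzyme for the ubiquitin-like protein ISG15, was at 0.688, 0.594, 0.589 and 1.53 CPM in VPA, CA-p38, AICAR 1 and AICAR 2 naive cells, against 30.2 and 26.2 CPM in primed EOS and primed CA-p38 cells. All of these genes were, like PHC2, highest among the naive libraries in AICAR 2, which the measure of likeness itself favours. The distances are descriptions over 6 libraries in 2 groups.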
